A study of Mus musculus with 8 samples.

Results

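The plasma protein genes described here are Alb, Afp, Hp, Hpx, Trf, Ttr, Cp, Apoa2, Apoh and Fgb, 10 of the 43629 genes in the deposited count table. They were matched by gene symbol, and all 10 had a row in the count and FPKM tables. The list was chosen by a reading of these same libraries, in which some of its genes stood high in tumor. The difference between tumor and small intestine is therefore given as a description for these 10 genes, without a test.

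Polyadenylated RNA was sequenced from 4 tumor libraries and 4 small intestine libraries of mice. The samples of both groups carried the label APC mutant for genotype, C57B6/129 for strain and none for treatment, and Apc loss is a known cause of intestinal tumors. The Apc allele, the age and sex of the animals, the part of the intestine sampled and the number of animals are unknown from the labels, and neither group is labelled as having received high-fructose corn syrup, the subject of the title. The labels do not tie libraries to separate animals, and a p-value here reflects the spread among the sampled libraries alone, which may be technical. Gene-assigned counts ran from 53856561 to 67371180 per tumor library and from 62347648 to 84433335 per small intestine library. All 8 listed genes of intestinal epithelium were detected in both tissues, with a summed level of 5233 to 7542 CPM in tumor, against 17700 to 25350 CPM in small intestine, where CPM is the count scaled by library total and TMM factor.

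Plasma proteins are made mainly by hepatocytes in the adult and by liver and yolk sac endoderm in the fetus. Albumin carries fatty acids, hormones and bilirubin and holds water in the circulation, and alpha-fetoprotein takes its place before birth. Haptoglobin binds free haemoglobin, hemopexin binds free haem, transferrin carries iron and ceruloplasmin, a copper-bearing ferroxidase, oxidises iron so that transferrin can load it. Several of these proteins belong to the acute phase response, in which interleukin-6 acting through STAT3, together with interleukin-1, raises haptoglobin, hemopexin, ceruloplasmin and fibrinogen in liver and lowers albumin and transthyretin. Liver-enriched transcription factors (HNF4, C/EBP and FOXA proteins among them) bind the promoters of many of these genes.

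The promoters of Alb, Afp and Fgb are shown because Alb and Afp, neighbouring genes of a single family, were both higher in tumor, whereas Fgb, another gene of the hepatocyte, was not detected above 1 count in either tissue. Each is the 250 bases before the RefSeq transcription start on GRCm38.p6, read 5′ to 3′ on the gene's strand. Capitals mark a match to TTNNGNAAT, core letters of a C/EBP site, on either strand, where N is any base. Alb lies at chr5:90460620-90460869 on the plus strand, Afp at chr5:90490464-90490713 on the plus strand and Fgb at chr3:83049864-83050113 on the minus strand.
Alb: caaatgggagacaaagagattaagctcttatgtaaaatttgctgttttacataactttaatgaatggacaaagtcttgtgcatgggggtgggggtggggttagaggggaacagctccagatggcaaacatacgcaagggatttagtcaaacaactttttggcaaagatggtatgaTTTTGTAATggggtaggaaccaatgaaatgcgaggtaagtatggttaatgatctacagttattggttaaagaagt
Afp: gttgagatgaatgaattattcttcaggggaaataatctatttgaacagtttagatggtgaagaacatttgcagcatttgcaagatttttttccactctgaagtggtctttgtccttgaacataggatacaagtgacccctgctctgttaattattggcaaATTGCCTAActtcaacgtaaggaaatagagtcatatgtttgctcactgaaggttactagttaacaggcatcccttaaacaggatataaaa
Fgb: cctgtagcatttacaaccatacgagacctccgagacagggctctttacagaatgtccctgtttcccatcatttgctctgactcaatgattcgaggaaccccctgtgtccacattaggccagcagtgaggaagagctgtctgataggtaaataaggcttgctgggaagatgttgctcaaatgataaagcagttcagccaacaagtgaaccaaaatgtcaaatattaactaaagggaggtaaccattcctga

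Of 32851 such windows of 27025 genes, 3337 (10.2%) held these letters on either strand. The match lay at -75 to -67 in Alb and, on the opposite strand, at -90 to -82 in Afp, counted from the start. Afm, the next gene of the family, held it at -84 to -76 and, overlapping that match on the opposite strand, at -86 to -78, and Apoh held it at -157 to -149 on the opposite strand. It was not found in the windows of Fgb, Hpx, Apoa2, Cp or Gc. Further letters searched on both strands were CAAAGTCCA for HNF4 (0.384% of windows), TTCNNNGAA for STAT (7.02%), TNTTTAC for FOX (10.9%) and TATAAA for the TATA box (12.4%). In Fgb the STAT letters lay at -162 to -154 and the FOX letters at -209 to -203 and, on the opposite strand, at -105 to -99. STAT letters were also found in Fga, a further fibrinogen gene, and FOX letters in Apoh, at -71 to -65, and in each window of Apoa2. In Afp the TATA letters lay at -7 to -2 from the RefSeq start, and Afm, Cp and Apoa2 held them as well. In none of these genes did the TATA letters overlap the C/EBP letters. The HNF4 letters were found in none of these genes. The windows of Alb and Afp end at 90460869 and 90490713, upstream of the annotated gene starts at 90460897 and 90490737. Counted from those gene starts, the positions given for Alb and Afp would lie further upstream. The bases between window and gene were not searched. A match of letters is a description of the sequence and not a measured binding site.

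Alb was abundant in tumor and nearly absent from small intestine. Its counts were 12753, 11394, 9851 and 4643 in tumor libraries 1 to 4, against 1, 0, 0 and 0 in small intestine libraries 1 to 4. The groups did not overlap, and tumor library 4 stood well below the other tumor libraries. As FPKM (fragments scaled by transcript length and library size), Alb was at 79.9, 79.4, 76.0 and 30.5 in tumor, with a mean of 66.4 ± 24.0 (SD, n = 4), against 0.0108 in small intestine library 1 and values listed at 0 in the other 3. In tumor it ranked 1307 among the 13173 genes with a mean of at least 1 FPKM, so 9.91% of them were higher. With 38641 summed counts in tumor and 1 in small intestine, the pooled ratio was 25600, with a 95% exact binomial interval of 4595 to 1011254 that covers counting error only. The fitted log2 fold change of 14.18 depends on the prior count added to the empty libraries, and it was 16.02 without small intestine library 1, the single one with a count. In such bulk samples, fewer cells of a type and less RNA per cell cannot be told apart. Alb is ENSMUSG00000029368, at chr5:90460897-90476602 on GRCm38.

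Afp, the fetal counterpart of Alb, lies just downstream of it at chr5:90490737-90508907. Its FPKM was 4.19, 2.67, 4.95 and 0.970 in tumor, against 0.117, 0.278, 0.0651 and 0.167 in small intestine. Every tumor library lay above every small intestine library, and tumor library 4 was again the lowest of its group. Afp averaged 3.19 ± 1.76 FPKM in tumor and 0.157 ± 0.0908 FPKM in small intestine (SD, n = 4 each), and the log2 fold change of TMM-scaled counts was 3.52 (SE 0.61). On the FPKM scale the mean level of Afp in tumor was far below that of Alb, and the ranges of the 2 genes did not overlap.

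The rest of the family was low but showed the same direction. Afm, which encodes afamin, a vitamin E carrier, lies next to Afp at chr5:90518932-90553543 and averaged 0.642 ± 0.162 FPKM in tumor and 0.0653 ± 0.0409 FPKM in small intestine (SD, n = 4 each). Gc, the vitamin D binding protein, had 105 summed counts in tumor and 1 in small intestine, a pooled ratio of 69.6 with a 95% exact binomial interval of 12.2 to 2774. The log2 fold change was 2.63 for Afm and 5.67 for Gc, and the Gc value was 7.51 without small intestine library 2, which held its count. Both genes were called higher by edgeR's quasi-likelihood test over the 17029 genes tested, after Benjamini-Hochberg adjustment. They passed the filter on low counts through the tumor libraries, where they are high, so these calls are a description. Among all genes tested, 38.9% were called higher and 35.4% lower in tumor, so a call by itself is common in this comparison. The neighbours beyond Afm were looked at for their position. The first, 5830473C10Rik, had 143 counts in tumor and 0 in small intestine. It was at least 31.6-fold higher when 3 counts over the 4 small intestine libraries together are taken as a floor. Rassf6, the next gene, which encodes a RAS-association domain protein and belongs to another family, averaged 8.67 ± 1.11 FPKM in tumor and 5.95 ± 0.279 FPKM in small intestine, without passing the test (log2 fold change of TMM-scaled counts -0.25, edgeR quasi-likelihood adjusted p = 0.0941).

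**Figure D1:**
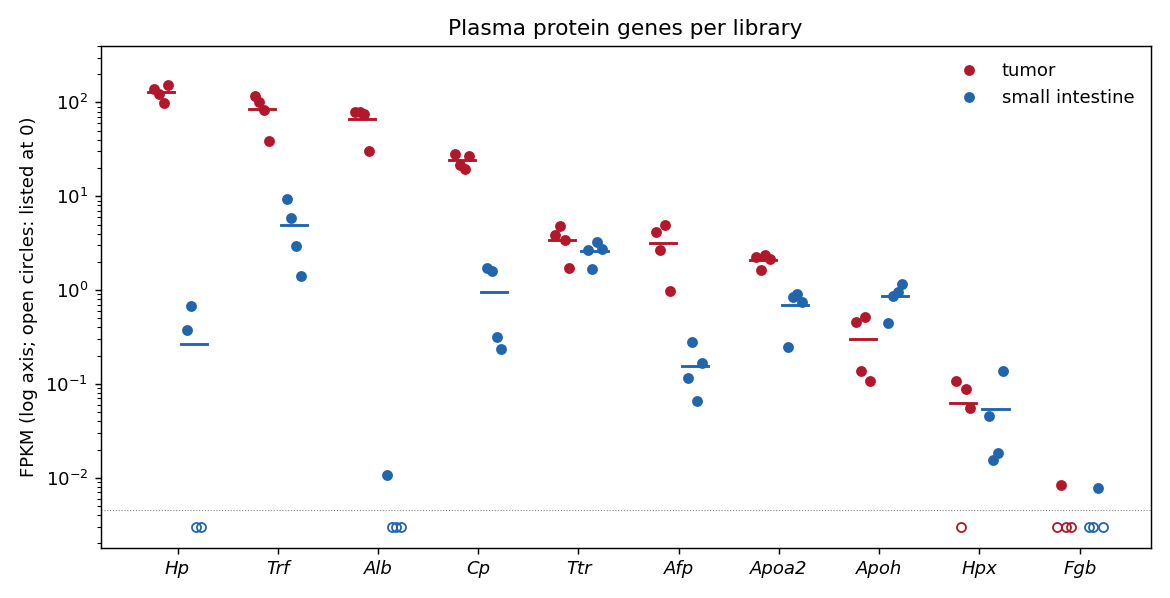
FPKM of the 10 plasma protein genes (log axis) in each of the 4 tumor libraries (red) and 4 small intestine libraries (blue), with horizontal bars for group means and open circles for values listed at 0. Hp, Trf, Alb and Cp lay highest in tumor and far above small intestine, Ttr overlapped between tissues, and Hpx and Fgb lay lowest.

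Hp, which encodes haptoglobin, had the highest mean FPKM of the 10 genes in tumor. It was at 137.5, 122.3, 99.7 and 152.2 FPKM in tumor, against 0.373 and 0.681 FPKM in small intestine libraries 1 and 2 and values listed at 0 in libraries 3 and 4. The corresponding counts were 14854, 11660, 8610 and 15690 in tumor and 42, 74, 3 and 1 in small intestine. The groups were far apart, and within small intestine libraries 1 and 2 carried nearly all of the counts. Hp averaged 151.3 ± 24.7 CPM in tumor, against 0.529 ± 0.613 CPM in small intestine (SD, n = 4 each). The log2 fold change was 8.13 (SE 0.79), and it was 9.08 without small intestine library 2. In tumor 4.58% of genes at or above 1 FPKM had a higher mean. Hp is at chr8:109575128-109579172, on the minus strand.

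Hpx, which encodes hemopexin, was near the detection limit in both tissues. It had 15, 0, 5 and 4 counts in tumor and 5, 1, 1 and 18 counts in small intestine, sums of 24 and 25, so the groups overlapped. The gene was too low to be tested, and these libraries did not detect a difference in it. Haptoglobin and hemopexin thus differed in level in the tumors by a wide margin, with means of 127.9 FPKM for Hp and 0.0627 FPKM for Hpx.

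Trf, which encodes transferrin, was at 117.7, 101.9, 82.6 and 38.5 FPKM in tumor, against 9.37, 5.82, 2.95 and 1.40 FPKM in small intestine. The lowest tumor library, number 4, was above the highest small intestine library. The means were 85.2 ± 34.2 FPKM in tumor and 4.89 ± 3.51 FPKM in small intestine (SD, n = 4 each), a ratio of 17.4. Trf had the highest mean FPKM of the 10 genes in small intestine.

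The counts of Trf were much lower than its FPKM would give. They were 693, 498, 392 and 241 in tumor and 77, 43, 38 and 6 in small intestine, and their log2 fold change was 2.87 (SE 0.62). To give the deposited tumor FPKM from these counts, the transcript would have to be 87.8 bases long, which is 2.64% of the 3320 bases of annotated Trf exons. Over 12839 genes the same percentage had a median of 71.2 and ran from 24.3 at the 5th to 121 at the 95th percentile, and 0.156% of the genes were at or below Trf. A second gene on the same strand, Gm20425 (chr9:103190208-103230307), covers 2108 of those bases, or 63.5%, and had 0 counts in all 8 libraries. Its deposited FPKM was not 0, at 1.995, 0.323, 0.192 and 2.74 in tumor libraries 1 to 4 and at most 0.251 in small intestine. The part of this overlap in the low counts was not tested. The level of Trf is given here as FPKM for this reason, and its fold change differs between the 2 tables.

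**Figure D2:**
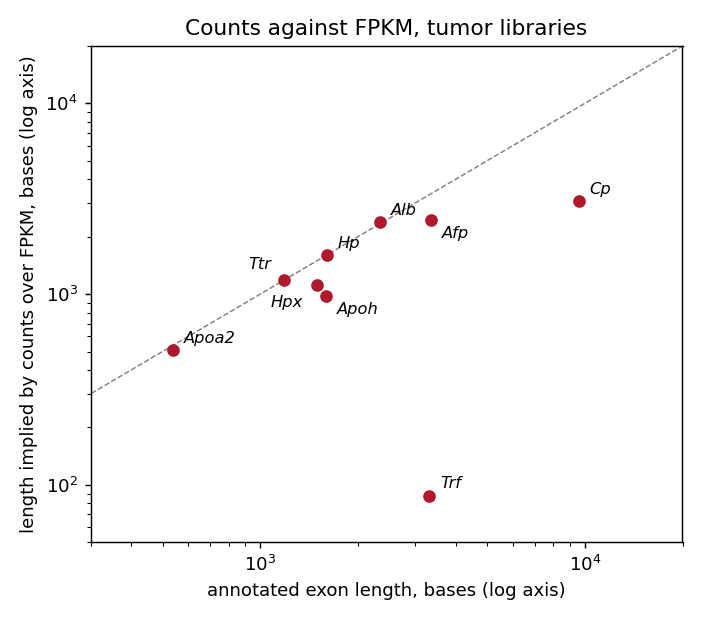
Transcript length in bases that would reconcile the deposited counts with the deposited FPKM in tumor (vertical, log axis) against annotated exon length (horizontal, log axis), one point per plasma protein gene, with a dashed line at equality. Trf stood alone at 87.8 implied bases for 3320 annotated bases, and Fgb, with 1 tumor count, is not drawn.

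Cp, which encodes ceruloplasmin, was at 28.2, 21.7, 19.7 and 27.1 FPKM in tumor, against 1.70, 1.59, 0.319 and 0.234 FPKM in small intestine. The groups did not overlap, and small intestine libraries 1 and 2 were again above libraries 3 and 4. Cp averaged 54.6 ± 9.13 CPM in tumor, against 3.50 ± 2.65 CPM in small intestine (SD, n = 4 each), and the log2 fold change was 3.96 (SE 0.56). The gene lies at chr3:19957054-20009145.

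Apoa2, which encodes a structural protein of high-density lipoprotein, was low in both tissues. Its FPKM was 2.23, 1.64, 2.39 and 2.17 in tumor, against 0.246, 0.850, 0.909 and 0.752 in small intestine, and the groups did not overlap. The counts behind these values were 58 to 79 per tumor library and 16 to 31 per small intestine library, and the log2 fold change of TMM-scaled counts was 0.79 (SE 0.30). It was 1.66 with library totals alone, a scaling that moved the median log2 fold change of all tested genes to 0.93, against 0.07 with TMM. FPKM carries no TMM factor, so ratios of FPKM between tissues include a similar shift.

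Apoh, which encodes beta-2-glycoprotein I, a phospholipid-binding protein, was the one member with all tumor libraries below all small intestine libraries in CPM. It had 20, 9, 34 and 6 counts in tumor and 42, 70, 61 and 66 counts in small intestine. The log2 fold change was -2.33 (SE 0.55), or -2.98 without tumor library 3. In FPKM the groups overlapped, with 0.453, 0.138, 0.519 and 0.107 in tumor and 0.443, 0.874, 0.955 and 1.16 in small intestine.

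Ttr, which encodes transthyretin, the carrier of thyroxine and of retinol-binding protein, did not separate the tissues. It was at 3.83, 4.84, 3.39 and 1.74 FPKM in tumor and at 2.65, 1.69, 3.26 and 2.75 FPKM in small intestine. The ranges overlapped, and the sign of the difference turned with the scaling, with a log2 fold change of -0.50 for TMM-scaled counts and 0.36 with library totals.

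Fgb, the beta chain of fibrinogen, had 1 summed count in tumor and 1 in small intestine. The other 2 fibrinogen chains were as low, with 4 summed counts of Fga in tumor and 6 in small intestine, and 0 counts of Fgg in all 8 libraries. A count of 0 allows a level of up to 0.0331 to 0.0630 CPM per library, since 3 counts correspond to that range.

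On the FPKM scale the order of mean levels in tumor was Hp, Trf, Alb, Cp, Ttr, Afp, Apoa2, Apoh, Hpx and Fgb. The ranges of Hp and Trf, and of Trf and Alb, overlapped, whereas Cp lay below Alb without overlap, and Ttr, Afp and Apoa2 overlapped one another. In small intestine the order was Trf, Ttr, Cp, Apoh, Apoa2, Hp, Afp, Hpx, Alb and Fgb, with means between 4.89 FPKM for Trf and 0.00193 FPKM for Fgb. Of the 10 genes, 8 passed the filter on low counts and Hpx and Fgb did not. In CPM, Alb, Afp, Hp, Trf, Cp and Apoa2 were higher in all tumor libraries than in all small intestine libraries, which was the case for 37.5% of the genes tested. Apoh was lower in all of them, as were 33.0% of the genes tested, and nothing is read from these counts because the same contrast chose the genes.

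The members did not vary together among the tumor libraries. Tumor library 4 was at 0.389 of the mean of the other 3 tumor libraries for Alb FPKM, at 0.247 for Afp, 0.383 for Trf, 0.432 for Ttr and 0.289 for Apoh. The same library was at 1.27 of that mean for Hp, 1.17 for Cp and 1.04 for Apoa2. Albumin family genes other than Alb and Afp did not share this, since Gc in tumor library 4 (0.271 CPM) lay at the level of library 2 (0.272 CPM) and Afm in library 4 (1.01 CPM) lay above library 2 (0.718 CPM). Of all tested genes, 31.5% had their lowest tumor value in library 4.

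Among the small intestine libraries, some markers of other cell types were highest where Hp and Cp were, in libraries 1 and 2, and others were not. The genes named here were singled out after their values were seen. Adiponectin (Adipoq) was at 2.78, 1.49, 0.0210 and 0.0517 CPM in small intestine libraries 1 to 4, and had 0 counts in all tumor libraries. The fibroblast gene Dcn was at 18.8, 16.2, 4.41 and 3.17 CPM in the same libraries, against 193 to 274 CPM in tumor. Of 6 adipocyte markers 5 were higher in small intestine libraries 1 and 2 than in 3 and 4. The sixth, Cidec, which encodes a lipid droplet protein, was highest in library 4, at 57.1, 47.9, 78.7 and 126 CPM. Cidec made up most of the summed level of the list, which was 2.82 to 7.48 CPM in tumor, against 72.5, 56.4, 78.9 and 126 CPM in small intestine libraries 1 to 4, and 2 of the 6 markers were at 0 in all tumor libraries. Of 6 fibroblast markers 5 were higher in libraries 1 and 2 than in 3 and 4, and Pdgfrb was highest in library 4. The fibroblast list summed to 1019 to 1578 CPM in tumor, against 22.1 to 55.9 CPM in small intestine. All 6 of its genes were called higher in tumor, as were 38.9% of all genes tested. The pattern of small intestine libraries 1 and 2 both above 3 and 4 was seen in 15.3% of the tested genes. The part of these cells in the levels of Hp and Cp was not tested.

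**Figure D3:**
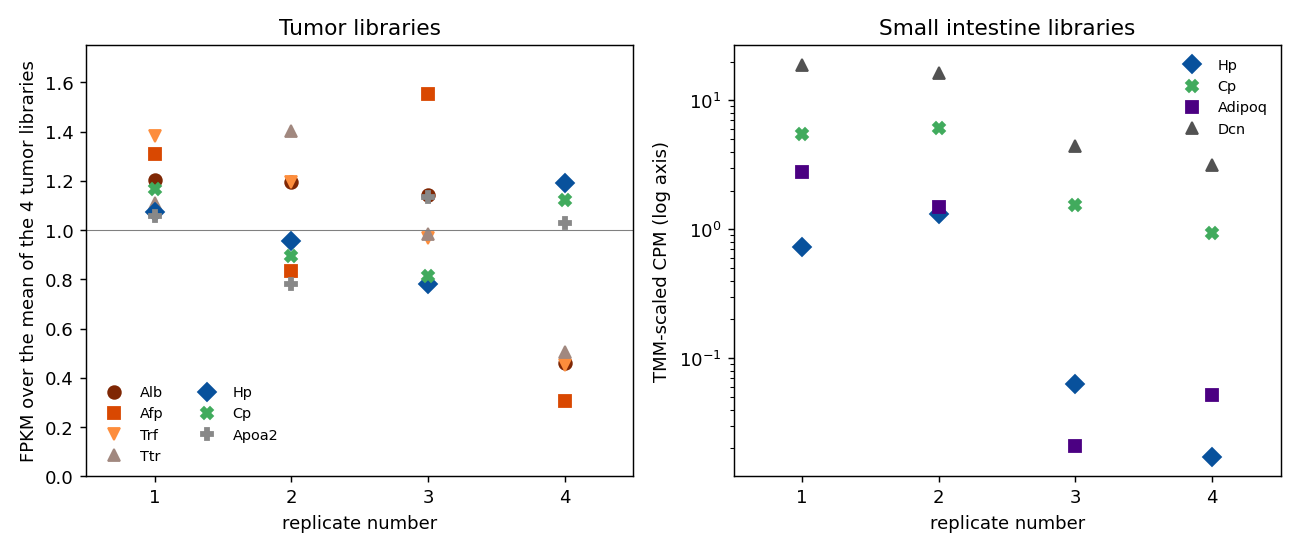
Left, FPKM of 7 plasma protein genes in each tumor library over the mean of the 4 tumor libraries (linear axis, line at 1). Right, TMM-scaled CPM (log axis) of Hp, Cp, the adipocyte gene Adipoq and the fibroblast gene Dcn in each small intestine library. Alb, Afp, Trf and Ttr were low in tumor library 4 while Hp and Cp were not, and all 4 genes at right were higher in small intestine libraries 1 and 2.

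Hepatocyte enzymes and transporters did not follow Alb. Of 28 listed genes 12 were tested, of which 2 were called higher, 5 lower and 5 neither. The shares over all genes tested were 38.9% higher and 35.4% lower. The median log2 fold change of the tested genes of the list was -1.38, against 0.07 over all genes tested. The summed level of all 28 genes was 33.6 to 82.5 CPM in tumor, against 310.3 to 356.9 CPM in small intestine. Genes that mark the hepatocyte, singled out after their values were seen, were at or near 0 in tumor, with 0 counts of Cyp7a1, the rate-limiting enzyme of bile acid synthesis, 3 of Cyp1a2, 4 of Mat1a (methionine adenosyltransferase) and 5 of Asgr1 (asialoglycoprotein receptor), set beside 38641 counts of Alb. The genes that fell are among those that small intestine itself expresses, such as Otc, a urea cycle enzyme, at 3.39 ± 1.46 CPM in tumor, against 161.5 ± 25.2 CPM in small intestine (SD, n = 4 each). Baat, the bile acid conjugating enzyme, fell with a log2 fold change of -7.08, and Ttc36 with -6.76. Hpd, an enzyme of tyrosine breakdown, fell by 1.92 on the log2 scale, a call that was lost with library totals (log2 fold change -1.08, edgeR quasi-likelihood adjusted p = 0.0598). Fah, the last enzyme of that pathway, rose to 6.40 ± 1.32 CPM in tumor, against 1.77 ± 0.485 CPM in small intestine (log2 fold change 1.85), and Hao1, the other gene that rose, had 231 counts in tumor and 0 in small intestine, at least 51.0-fold higher. Hao1 fell outside the rule for named genes and was added after its values were seen.

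Of 7 yolk sac endoderm markers 6 were tested, of which 2 were higher, 3 lower and 1 neither in tumor, beside 38.9% higher and 35.4% lower over all genes tested, with a summed level of 209 to 384 CPM in tumor, against 495 to 736 CPM in small intestine. Most of the tested markers of blood and vessel cells were called higher in tumor, and the exceptions are named with each list. The 5 erythroid genes summed to 20.5 to 38.6 CPM in tumor, against 2.29 to 14.0 CPM in small intestine and all rose, and the 4 endothelial genes summed to 133 to 175 CPM in tumor, against 6.24 to 21.2 CPM in small intestine, and all rose as well. The 8 macrophage genes summed to 280.1 to 484 CPM in tumor, against 107 to 249 CPM in small intestine, with 7 called higher and Lyz2 not called, and the 10 neutrophil genes to 13.6 to 67.3 CPM in tumor, against 0.609 to 10.5 CPM in small intestine, with 6 called higher and 4 too low to be tested, among them Ngp with 48 counts in tumor and 107 in small intestine. The 4 platelet genes summed to 5.22 to 20.9 CPM in tumor, against 1.80 to 2.83 CPM in small intestine (2 of 3 tested higher, Itga2b not called and Gp9 too low to be tested), and the 4 mesothelial genes to at most 7.04 CPM in tumor, against 0.849 to 5.45 CPM in small intestine (the 1 tested gene higher). The 8 genes of pancreatic acini summed to 47.8 to 75.7 CPM in tumor, against 5.69 to 9.40 CPM in small intestine, nearly all of it from Cela1, an elastase gene and the 1 gene tested, which rose to 47.7 to 75.7 CPM in tumor, against 5.64 to 9.32 CPM in small intestine. The other genes of that list had 0 to 10 summed counts in tumor, and 3 of them were at 0 in all tumor libraries. The 6 glial genes summed to 30.6 to 36.6 CPM in tumor, against 59.4 to 66.9 CPM in small intestine, with 2 of 3 tested called higher and 1 lower, and of the epithelial genes 1 was called higher and 7 lower. The part of these cells in the levels of the plasma protein genes was not tested.

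Beyond the 10 genes, 80 further genes of secreted plasma proteins had a row, and 53 passed the filter. Of these, 32 were called higher in tumor, 12 lower and 9 neither, beside 38.9% higher and 35.4% lower over all genes tested. Their median log2 fold change was 2.48, against 0.07 over all genes tested. The summed level of all 80 genes went the other way, at 3474 to 5440 CPM in tumor, against 29010 to 42710 CPM in small intestine. Apolipoproteins and their partners made up most of the small intestine sum, at 19830 to 28930 CPM. With library totals alone the split of calls was 39 higher and 11 lower, beside 10564 higher and 2996 lower of the 17029 genes tested. The lists were written with earlier results of these data known, so the counts describe them and are no independent evidence of a direction.

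**Figure D4:**
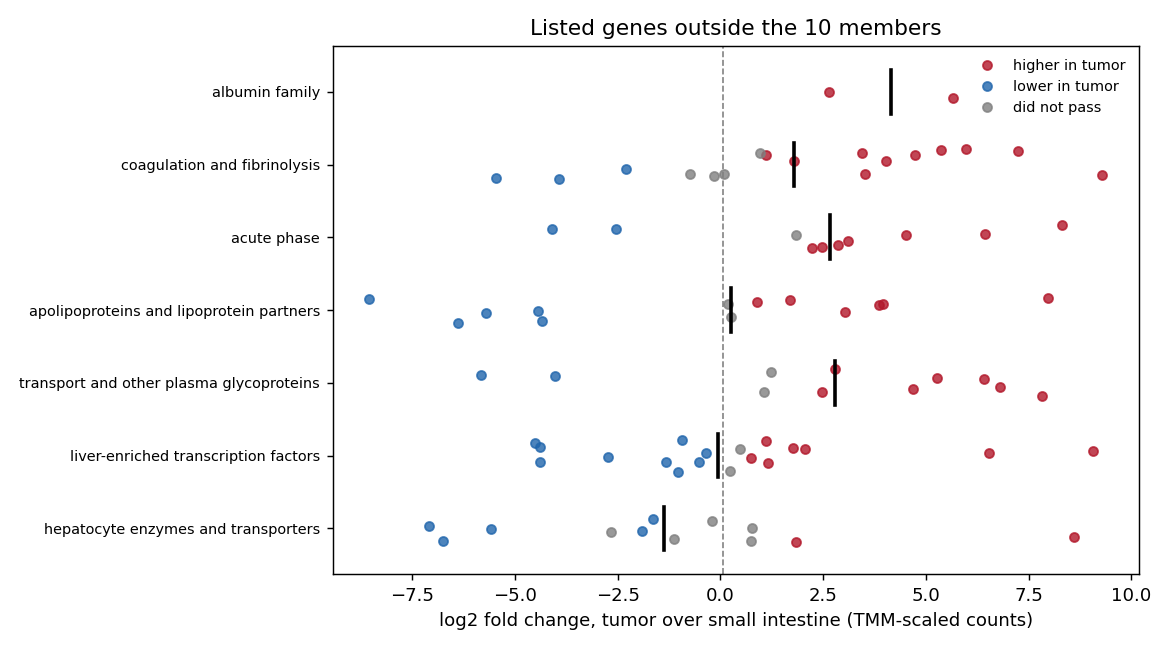
Log2 fold change of TMM-scaled counts, tumor over small intestine, for each tested gene of 7 lists outside the 10 plasma protein genes, coloured by the call at adjusted p under 0.05. Black bars are list medians and the dashed line is the median over all tested genes (0.07), with coagulation, acute phase and transport proteins mostly to its right and apolipoproteins on both sides.

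Among acute phase genes 7 of 10 tested rose, 2 fell and 1 did neither, of 20 with a row. Over all genes tested, 38.9% were called higher and 35.4% lower. Lcn2, lipocalin 2, an iron-siderophore binder, averaged 329.5 ± 83.2 CPM in tumor, against 1.05 ± 0.850 CPM in small intestine (log2 fold change 8.31, edgeR quasi-likelihood adjusted p = 3.18e-06). Saa3, a serum amyloid A made outside the liver, averaged 111.5 ± 22.2 CPM in tumor, against 1.31 ± 1.05 CPM in small intestine, and Serpina3n, a protease inhibitor, averaged 85.2 ± 45.7 CPM in tumor, against 3.72 ± 3.39 CPM in small intestine. Hamp, the iron hormone hepcidin, rose at a low level, with 4.21 ± 0.469 CPM in tumor, against 0.484 ± 0.256 CPM in small intestine. Serpina1b, an alpha-1-antitrypsin gene with close copies whose reads may be shared, fell with a log2 fold change of -4.11. Saa1, which has a near-identical neighbour in Saa2, fell by 2.53 on the log2 scale, but its value was -1.54 without small intestine library 2, and the call was lost with library totals (-1.67, edgeR quasi-likelihood adjusted p = 0.0537). The C-reactive protein gene Crp (10 counts in tumor, 0 in small intestine) and Orm1, an orosomucoid gene (52 counts in tumor, 1 in small intestine), named after their values were seen, were too low to be tested.

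Among coagulation and fibrinolysis genes 10 of 17 tested rose, 3 fell and 4 did neither. The shares over all genes tested were 38.9% higher and 35.4% lower. F5, coagulation factor V, averaged 30.7 ± 10.4 CPM in tumor, against 0.201 ± 0.101 CPM in small intestine (log2 fold change 7.25, edgeR quasi-likelihood adjusted p = 5.67e-07). F13a1, the factor XIII subunit also known from macrophages and platelets, averaged 12.5 ± 7.43 CPM in tumor, with a single small intestine library, number 2, above 0 (log2 fold change 9.29, or 12.79 without that library). Vwf, the von Willebrand factor of endothelium, rose with a log2 fold change of 4.73, beside the endothelial genes summed above. F2, prothrombin, averaged 3.31 ± 1.35 CPM in tumor, against 0.199 ± 0.143 CPM in small intestine. Proz, protein Z, fell, at 0.506 ± 0.245 CPM in tumor, against 22.2 ± 5.12 CPM in small intestine.

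Of the apolipoproteins and their partners 6 of 13 tested genes were called higher, 5 lower and 2 neither, near the 38.9% higher and 35.4% lower over all genes tested. Those that fell are known products of the absorbing enterocyte. Apoa1, of high-density lipoprotein, averaged 198 ± 82.6 CPM in tumor, against 16470 ± 2161 CPM in small intestine, and Apoc3, an inhibitor of triglyceride clearance, averaged 0.463 ± 0.253 CPM in tumor, against 173 ± 75.6 CPM in small intestine. Apoa4 and Apoc2, the activator of lipoprotein lipase, fell with log2 fold changes of -5.70 and -4.43, the second being -3.70 without small intestine library 3. Clu, clusterin, an extracellular chaperone, averaged 2424 ± 616 CPM in tumor, against 157 ± 122 CPM in small intestine (log2 fold change 3.95, edgeR quasi-likelihood adjusted p = 0.000342). The log2 fold change of Apod was 7.97 (8.65 when small intestine library 4 was left out), that of Apoc4 3.86 and that of Apoe 0.88, and all 3 rose.

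Of the 11 transport and other glycoprotein genes tested 7 rose, 2 fell and 2 did neither. The shares over all genes tested were 38.9% higher and 35.4% lower. Fetub, fetuin B, a protease inhibitor, averaged 25.9 ± 4.46 CPM in tumor, against 0.111 ± 0.0842 CPM in small intestine (log2 fold change 7.82, or 8.41 without small intestine library 1). Ltf, lactotransferrin, a relative of transferrin found in neutrophils and secretions, averaged 118 ± 47.0 CPM in tumor, against 3.06 ± 2.50 CPM in small intestine (log2 fold change 5.27, or 5.87 without small intestine library 2). Rbp4, the retinol carrier that circulates bound to transthyretin, lay at 29.8 to 58.8 CPM in the tumor libraries, against 1.01 to 2.12 CPM in those of small intestine (log2 fold change 4.69, edgeR quasi-likelihood adjusted p = 8.49e-07), while Ttr itself overlapped between the tissues. Gpld1, a phospholipase that cleaves lipid anchors, rose with a log2 fold change of 2.49. Selenop, the selenium carrier, and Tcn2, the vitamin B12 carrier, fell with log2 fold changes of -5.83 and -4.02.

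Of the receptors and metal partners of these proteins 5 of 14 tested genes were called higher, 5 lower and 4 neither (median log2 fold change -0.29), near the shares over all genes tested, 38.9% higher and 35.4% lower. The transferrin receptor Tfrc averaged 367 ± 73.9 CPM in tumor, against 189.7 ± 53.5 CPM in small intestine (log2 fold change 0.95, edgeR quasi-likelihood adjusted p = 0.00282). Stra6, the receptor of retinol-binding protein, averaged 338.5 ± 66.4 CPM in tumor, against 6.65 ± 5.73 CPM in small intestine (log2 fold change 5.67, or 6.35 without small intestine library 2). Scarb1, a receptor for high-density lipoprotein, rose with a log2 fold change of 3.80, and Hmox1, which breaks down haem, with 3.12. Cd163, the macrophage receptor for haemoglobin bound to haptoglobin, had 24 counts in tumor and 3 in small intestine and was too low to be tested. Fcgrt, the neonatal Fc receptor that returns albumin to the circulation, fell to 25.1 ± 4.27 CPM in tumor, against 143 ± 23.8 CPM in small intestine. Cubn (cubilin, which takes up albumin and transferrin), Heph (the intestinal relative of ceruloplasmin) and Lrp1, a receptor for haem bound to hemopexin, fell with log2 fold changes of -7.20, -3.42 and -2.36. With library totals, which called 10564 of the 17029 genes tested higher, 9 genes of this list were called higher, against 5 with TMM.

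Of the liver-enriched transcription factors 7 of 18 tested genes were called higher, 9 lower and 2 neither, beside 38.9% higher and 35.4% lower over all genes tested, so nothing is read from the count. The split was 11 higher and 5 lower with library totals, which called 10564 of the 17029 genes tested higher and 2996 lower. Onecut2 averaged 141 ± 34.1 CPM in tumor, against 0.257 ± 0.228 CPM in small intestine (log2 fold change 9.07, or 9.78 without small intestine library 2). Prox1 averaged 359 ± 43.2 CPM in tumor, against 3.87 ± 0.311 CPM in small intestine (log2 fold change 6.54, edgeR quasi-likelihood adjusted p = 1.6e-08). Foxa1 and Cebpd rose with log2 fold changes of 2.07 and 1.78, and Foxa2 with 1.12, a call that was lost without small intestine library 1, 2 or 3 (edgeR quasi-likelihood adjusted p = 0.0567, 0.0541 and 0.0558). Hnf4a averaged 249.6 ± 25.9 CPM in tumor, against 1668 ± 355 CPM in small intestine, and Hnf4g, Nr5a2 and Nr1h4 fell with log2 fold changes of -4.51, -4.40 and -4.40. Cebpa fell by 1.03 on the log2 scale, but with library totals its value was -0.17 and did not pass (edgeR quasi-likelihood adjusted p = 0.236).

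Of the acute phase cytokines, receptors and mediators 12 of 14 tested genes rose and 2 were called lower. The lower call of Stat3 rests on the setting. Over all genes tested, 38.9% were called higher and 35.4% lower. The median log2 fold change of the list was 2.30, against 0.07 over all genes tested. Il11 averaged 25.2 ± 9.83 CPM in tumor, against 0.154 ± 0.0163 CPM in small intestine, and Il1b averaged 28.6 ± 12.3 CPM in tumor, against 1.05 ± 0.568 CPM in small intestine. Il6 averaged 2.18 ± 1.44 CPM in tumor and was above 0 in a single small intestine library, number 2 (log2 fold change 6.48, or 10.27 without it). The interleukin-1 receptor Il1r1 averaged 22.5 ± 2.50 CPM in tumor, against 1.29 ± 0.848 CPM in small intestine (log2 fold change 4.12, edgeR quasi-likelihood adjusted p = 3.17e-05), and the interleukin-22 receptor Il22ra1 fell by 2.06 on the log2 scale. Stat3, the transcription factor downstream of several of these receptors, fell by 0.35 on the log2 scale with TMM, a direction that turned to 0.52 with library totals. With TMM its call was lost without any one of the tumor libraries or without small intestine library 2 or 4 (edgeR quasi-likelihood adjusted p = 0.068 to 0.104), and with no filter on low counts (adjusted p = 0.142).

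Genes whose profile over the 8 libraries was nearest to each member were taken as those with the smallest root mean square difference of log2 CPM after centring. Wfdc18, Gkn3 and Bpifb1 were nearest to Alb, with differences of 0.241, 0.322 and 0.437. Il17c was nearest to Afp (0.333), Palmd to Hp (0.801), Fam167b to Trf (0.433) and Lrrc51 to Ttr (0.222). The nearest to Cp were Lhfp (0.236), Kif26a (0.285) and Il1r1 (0.290). All these profiles share the same libraries and the same contrast between tissues, so the values are a description.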

How the data were processed

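The authors deposited whole-number read counts per gene, with no normalization, and FPKM values per gene, which the authors had scaled by transcript length and library size. The tools, per the submitters' processing notes, were STAR, HTSeq 0.6.0, Cufflinks 2.2.1 and FastQC, with GRCm38 as the build. What each tool did, its parameters, the gene annotation and whether counting used strand is not given in the sources used here. Reads of a gene and of an antisense gene that overlaps it may therefore be mixed. Libraries are of polyadenylated RNA, 4 of tumor and 4 of small intestine, grouped by the tissue label.

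Deposited counts were tested with edgeR 4.0.16 (quasi-likelihood F test) in R 4.3.3, with TMM scaling, the filterByExpr filter, tissue as the only term and Benjamini-Hochberg adjustment over 17029 genes. An adjusted p under 0.05 was called. CPM is TMM-scaled, and standard errors were computed as the fold change over the root of F. Log2 fold changes are tumor over small intestine. Levels of the 10 members were compared with one another only as the authors' FPKM, which carries no TMM factor. Counts of hepatocyte genes set beside Alb, and CPM summed over a list, carry no scaling by transcript length. Symbols were matched by identifier for 42462 of 43629 genes, with positions from GENCODE M21. Promoter sequences are RefSeq's on GRCm38.p6, and motif matches were searched on both strands. The promoters of Hp, Trf and Ttr were not used here.

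The 10 members and the 21 gene lists were chosen with earlier results of these data known, and no list was tested as a set. Of 235 listed genes 233 had a row, and Klkb1 and Muc16 were not analysed here. Genes named from a list are up to 4 called genes that rose most and up to 4 that fell most, among those averaging 1 CPM or more, plus Afm, Gc, Fga, Fgg, Hnf4a, Cebpa, Foxa2, Tfrc, Cd163 and Fcgrt. Other listed genes that the text names, such as markers of other cell types, were singled out after their values were seen. A gene picked by this rule is not reported here.

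Library totals of 53856561 to 84433335 counts put 3 counts at 0.0331 to 0.0630 CPM. For a gene without counts in a group, 3 counts over all libraries of that group together served as the floor. One with 1 to 3 counts received a ratio of summed counts per summed TMM-scaled library size with a 95% exact binomial (Clopper-Pearson) interval. Reads carry no molecular identifiers, so neither covers more than counting error. Libraries within a group all differed by more than sampling noise (lowest chi-square per degree of freedom 38.9).

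The count test was checked on simulated counts for this comparison over 16809 genes, of which 200 were changed. It called 44% of the 2-fold and 80% of the 4-fold changes, and 6.06% of its calls were false. In the deposited counts 6619 genes were called higher and 6030 lower of the 17029 tested. The share of false calls with that many genes changed was not tested. Tried as alternatives were the Wald test of DESeq2 1.42.0 and its size factors, scaling by library totals, no filter or a filter at a mean of 1 CPM, a prior count of 2, the replicate number as a block, limma 3.58.1 on log2(FPKM + 1) for genes averaging 1 FPKM or more, the same with a pseudocount of 0.1 or no filter, and each library left out in turn.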

Additional observations from a re-analysis of the deposited data

Results flagged for a closer look

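A value was singled out where the highest or lowest library of a group of 4 lay apart from the rest by more than Dixon's 95% critical value allows. This was so for 11 of the 132 groups looked at, over 70 genes, and chance gives about 1 in 20. Among the 10 plasma protein genes it held for Alb, at 52.4 CPM in tumor library 4, while tumor libraries 1 to 3 were at 137.6 to 141.0 CPM.

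Among regulators, Nr1h4 was at 7.28 CPM in tumor library 4 (14.6 to 15.7 in the other tumor libraries) and Il22ra1 at 22.6 CPM in tumor library 3 (29.8 to 30.2). In small intestine library 4, Prox1 was at 4.33 CPM (3.67 to 3.77 in the other small intestine libraries) and Foxa2 at 4.76 CPM (3.15 to 3.35). Il6 was at 0.0884 CPM and F13a1 at 0.0707 CPM in small intestine library 2, with 0 counts of both in the other small intestine libraries.

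Among other plasma protein genes, Gc was at 0.447 CPM in tumor library 3 (0.271 to 0.298 in the other tumor libraries) and Apoc3 at 0.842 CPM in tumor library 2 (0.307 to 0.353). Small intestine library 3 stood apart for Apoc3, at 285 CPM (119 to 147 in the others), and for Proz, at 14.6 CPM (24.3 to 25.5).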

How the results depend on the processing

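Hp and Cp moved by less than the spread between replicates under every alternative run. The log2 fold change of Alb was 14.90 with library totals, 11.78 with a prior count of 2, 5.97 on log2(FPKM + 1) with or without the filter and 9.24 with a pseudocount of 0.1, and ran from 13.85 to 16.02 with each library left out. Afp was at 1.74 on log2(FPKM + 1) with or without the filter. Trf was at 3.97 on that scale with or without the filter and 4.30 with a pseudocount of 0.1. Ttr turned to 0.36 with library totals, 0.28 on log2(FPKM + 1) with or without the filter and 0.35 with a pseudocount of 0.1. Apoa2 was at 1.66 with library totals and 1.59 with a pseudocount of 0.1, and Apoh at -1.47 with library totals and -0.51 on log2(FPKM + 1) without the filter. Liver-enriched transcription factors called higher were 11 with library totals and 11 with unfiltered FPKM, and those called lower were 5 with library totals and in the 3 FPKM fits. Hepatocyte genes called higher were 4 with library totals, 1 with the filter at a mean of 1 CPM, 5 with unfiltered FPKM and 2 to 4 with each library left out, and those called lower were 10 with no filter on counts. Stat3 turned to 0.52 with library totals, 0.52 on log2(FPKM + 1) with or without the filter and 0.53 with a pseudocount of 0.1. Library totals called 10564 genes higher and 2996 lower, against 6619 and 6030 with TMM, and the FPKM fit at a pseudocount of 1 called 8297 higher and 2326 lower. Pseudocounts shrink the changes of low genes by construction, and filters change the genes tested. The cause of the other shifts was not tested.

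Whether same-numbered libraries came from the same animal is unknown from the labels. Deviations from the group mean correlated at -0.07, -0.08, 0.01 and -0.16 between same-numbered libraries. These values cannot decide it, because such deviations balance around 0 over all pairings. With the replicate block 31 other plasma protein genes were called higher and 12 lower, against 32 and 12 without it. Of the named genes Stat3 alone lost its call under the block (log2 fold change -0.33, edgeR quasi-likelihood adjusted p = 0.0881). Apoa2 and Apoh have no value at a mean of at least 1 CPM, nor Apoh in the filtered FPKM fits, because they fall below those filters. Depth limits Hpx, Fgb and the other fibrinogen chains, whose counts allow no comparison.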
